A study of Mus musculus with 20 samples.

Results

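Amino acid transporters of the solute carrier (SLC) families move amino acids and related compounds across the plasma membrane and the lysosomal membrane. The genes described here are those whose symbols begin with Slc1a, Slc3a, Slc6a, Slc7a, Slc36a, Slc38a or Slc43a. The rule uses names only and found 64 of the 24059 genes counted. Of these, 61 carry the symbol of a transporter or of its partner protein, and 3 (Slc7a6os, Slc36a1os and Slc6a19os) are named as genes on the opposite strand of one. The 7 families held 7 genes of SLC1, 2 of SLC3, 20 of SLC6, 16 of SLC7, 5 of SLC36, 11 of SLC38 and 3 of SLC43. The name covers more than amino acids: Slc6a8 carries creatine, Slc43a3 carries purine nucleobases, and several SLC6 proteins take up neurotransmitters.

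In muscle these carriers set the supply of amino acids for protein synthesis, anaplerosis and osmotic balance. The SLC38 proteins SNAT1, SNAT2 and SNAT4 form the sodium-coupled System A, which concentrates small neutral amino acids such as alanine and glutamine in the cell. The SLC7 proteins mostly work as exchangers, several of them bound to a heavy chain encoded by Slc3a2 or Slc3a1. The SLC43 proteins of Slc43a1 and Slc43a2 let branched-chain amino acids pass by facilitated diffusion. Amino acids in the cytosol and the lysosome activate the kinase complex mTORC1, while their shortage activates the kinase GCN2 and the factor ATF4, of which Slc38a2 and Slc7a5 are known targets.

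Poly(A) RNA from the free wall of left ventricles was sequenced, taken from male C57BL/6 mice aged about 9 to 13 weeks, with 5 libraries in each of 4 groups. In CardioGRKO mice Nr3c1, which encodes the glucocorticoid receptor, is floxed, and a Cre transgene driven in cardiomyocytes by the alpha myosin heavy chain (Myh6) promoter deletes it there. GRflox littermates have the same floxed Nr3c1 without the transgene, so an effect of receptor loss and one of Cre itself cannot be told apart. Hearts of each genotype were taken at ZT12, when the lights went off, or at ZT0, when they went on.

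The libraries held 5854462 to 37648421 counts, with a median of 23223656, and replicate 1 of CardioGRKO at ZT0 held the fewest. Its deposited file also bears a number different from that on the other 19, and nothing in the labels says what this number marks. Nr3c1 had 46.8 to 55.9 CPM (counts per 1000000 counted, scaled by library) in CardioGRKO and 95.3 to 118 CPM in GRflox at ZT12, and 51.9 to 61.1 against 106 to 123 CPM at ZT0, with no overlap. Replicate numbers are not tied to named animals, so the p-values measure the spread between libraries. Cardiomyocyte markers were abundant, and 7 of 8 at ZT12 and 4 of 8 at ZT0 were lower in CardioGRKO. Their summed level was 82950 to 97320 CPM in CardioGRKO against 101300 to 106000 CPM in GRflox at ZT12, and 82930 to 90480 against 94950 to 100700 CPM at ZT0. Of 8 endothelial markers, 3 at ZT12 and 4 at ZT0 were lower in CardioGRKO, and 4 in CardioGRKO and 5 in GRflox were lower at ZT12 than at ZT0. Of 8 pericyte and smooth muscle markers, Acta2 was higher in CardioGRKO at both times, and 2 at ZT12 and 4 at ZT0 were lower. Of 7 fibroblast markers, 1 was higher in CardioGRKO at ZT12 and 0 were called at ZT0. No marker of the defining cardiomyocyte, endothelial, fibroblast, pericyte or macrophage lists was at 0, while 3 of 4 erythroid markers were. In RNA of a whole wall, fewer cells of a type and less RNA per cell cannot be told apart, and the part that these shifts have in the results was not tested.

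Of the 64 transporter genes, 36 passed the filter on low counts and were tested, among them Slc7a5, Slc38a2 and Slc6a6, which were counted in all 20 libraries. The tested genes were 6 of SLC1, 2 of SLC3, 4 of SLC6, 9 of SLC7, 3 of SLC36, 9 of SLC38 and 3 of SLC43. The 9 of SLC7 include Slc7a6os, named for the opposite strand and not as a transporter, and the shares of the 36 below include it. The other 28 stayed low: the highest in any library was Slc6a4, the serotonin transporter, at 1.11 CPM, and the next was Slc38a5 at 0.588 CPM. Slc36a3, Slc6a5 and Slc7a12 had no count in any library, and the cystine transporter gene Slc7a11 reached at most 4 counts. Slc7a9 and Slc7a13, whose proteins pair with the heavy chain of Slc3a1 in kidney, reached at most 1 and 3 counts in a library.

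Per kilobase of exon, the highest level belonged to Slc6a8, the creatine transporter, at 56.9 CPM per kb over all 20 libraries, with no library below 50.7. Slc6a6, the taurine transporter, followed at 28.3 CPM per kb with a range of 22.4 to 35.2. Slc38a2 (SNAT2) had 23.3, Slc38a10 22.9, Slc38a3 (SNAT3, a glutamine carrier) 21.2 and Slc43a3 20.7 CPM per kb. Over all 20 libraries the range of each of these 5 genes, from Slc6a6 to Slc43a3, overlapped with that of the next in order. These ranges pool the 4 groups, and the order differed between times. In GRflox Slc38a2 had 16.7 ± 1.24 CPM per kb at ZT12 and 26.5 ± 5.16 at ZT0. Slc43a3 had 26.5 ± 2.25 at ZT12 and 16.6 ± 1.385 at ZT0 in GRflox (mean ± SD, n = 5 each). The heavy chains Slc3a2 (CD98) and Slc3a1 (rBAT) had 14.0 and 13.3 CPM per kb, and Slc36a2, a proton-coupled carrier of glycine and proline, had 12.8. Slc3a1 shares 26.5% of its exon bases with Prepl on the opposite strand, so its level may include reads of that gene. Slc7a5 (LAT1), the exchanger of large neutral amino acids, had 2.07 CPM per kb, below the cationic amino acid transporter Slc7a1 at 7.72. The glutamate transporter Slc1a2 was lowest among the tested genes at 0.0443 CPM per kb. Together the top 5 genes held 57.95% of the summed level per kb of the tested transporter genes. Apart from Slc6a8, only Slc36a1 at rank 15 had libraries that all lay above those of the next gene.

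**Figure D1:**
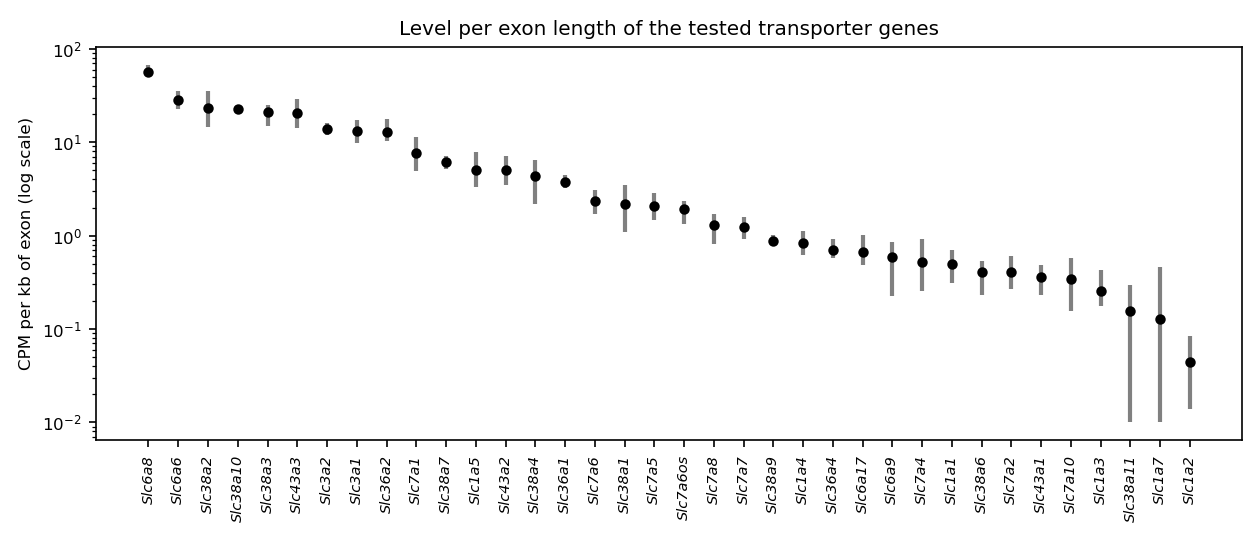
Level of the 36 tested transporter genes in CPM per kilobase of exon on a log axis; points are means over 20 libraries and lines run from the lowest to the highest library (lines of Slc38a11 and Slc1a7, each with a library at 0, are drawn to the lower end only). Slc6a8 stands above the others at 56.9 CPM per kb, and most neighbours in the order overlap.

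The comparison of genotypes asks which transporter genes differed in ventricles whose cardiomyocytes had lost the glucocorticoid receptor. At ZT12, 7 of the 36 tested genes were higher in CardioGRKO than in GRflox and 2 were lower. That is 25.0% of them, against 21.1% of all 14007 genes tested (10.4% higher and 10.7% lower). At ZT0, 4 were higher and 1 was lower, which is 13.9% against 14.7% of all genes (7.36% higher and 7.35% lower). The share of transporter genes called was thus near that of all genes, and among 206 other tested Slc genes it was 24.8% at ZT12 and 19.9% at ZT0. The genes counted as lower at ZT12 include Slc1a7, whose call is set aside below because of how it passed the filter. The median log2 fold change was 0.09 at ZT12 and 0.04 at ZT0, against 0.00 and -0.01 for all genes tested. Differences are log2 fold changes of CardioGRKO over GRflox ± SE with 5 libraries in each group, and a gene is called at an adjusted p under 0.05 (edgeR quasi-likelihood test, Benjamini-Hochberg over all genes tested).

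Slc38a1 at both times and Slc38a4 at ZT12, both of System A, had the largest rises among the transporter genes called between genotypes. Slc38a1, which encodes SNAT1 (Entrez gene 105727, chromosome 15, 96571418 to 96643438 in mm10, minus strand), was more than doubled. Its ZT12 libraries had 58.95, 50.4, 60.5, 52.4 and 51.99 CPM in CardioGRKO, against 29.2, 26.03, 26.8, 22.2 and 19.98 CPM in GRflox. Its ZT0 libraries had 53.01, 48.8, 47.8, 54.8 and 45.7 CPM in CardioGRKO, against 18.8, 22.2, 23.6, 21.9 and 25.2 CPM in GRflox. All 5 CardioGRKO libraries lay above all 5 GRflox libraries at both times, and the gap was wider than the spread within any group. On the log2 scale the difference was 1.14 ± 0.09 at ZT12 (edgeR adjusted p = 1.53e-09) and 1.16 ± 0.09 at ZT0 (edgeR adjusted p = 3.46e-09). These are folds of 2.197 and 2.23.

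Slc38a4, which encodes SNAT4 and is imprinted in mouse (Entrez gene 69354, chromosome 15, 96994816 to 97055956, minus strand), was also higher in CardioGRKO. At ZT12 it had 24.4, 19.4, 23.7, 19.7 and 20.7 CPM in CardioGRKO, against 12.3, 12.6, 11.1, 11.1 and 9.404 CPM in GRflox. At lights on it had 23.9, 24.04, 22.7, 25.4 and 27.3 CPM in CardioGRKO, against 16.6, 17.4, 14.4, 16.7 and 21.5 CPM in GRflox. The groups did not overlap at either time, and the lowest group was GRflox at ZT12. The fitted log2 fold change was 0.93 ± 0.10 at ZT12 (edgeR adjusted p = 2.01e-07) and 0.50 ± 0.10 at ZT0 (edgeR adjusted p = 6.74e-04).

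Slc38a2, which encodes SNAT2, the System A carrier induced by amino acid shortage and hypertonicity (Entrez gene 67760, chromosome 15, 96687392 to 96699728, minus strand), was higher in CardioGRKO at ZT12. Libraries at ZT12 had 229, 148, 208, 186 and 184 CPM in CardioGRKO, against 152, 129, 146, 152 and 158 CPM in GRflox. At ZT0 it had 239, 313, 240.5, 229.7 and 234 CPM in CardioGRKO, against 226, 272, 290.1, 196 and 187 CPM in GRflox. At ZT12 4 of 5 CardioGRKO libraries lay above every GRflox library, while replicate 2 fell among them, and at ZT0 the groups overlapped. This gave a log2 fold change of 0.38 ± 0.12 at ZT12 (edgeR adjusted p = 0.0227) and 0.10 ± 0.12 at ZT0 (edgeR adjusted p = 0.629). The ZT12 call was lost without CardioGRKO replicate 1 or 3 or GRflox replicate 2, with log2 fold changes of 0.31, 0.35 and 0.33 (edgeR adjusted p = 0.0768, 0.0514 and 0.0642).

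The 3 genes of System A lie in a row on chromosome 15, with 43954 bases between Slc38a1 and Slc38a2 and 295088 bases between Slc38a2 and Slc38a4. At ZT12 their log2 fold changes between genotypes were thus 1.14 ± 0.09, 0.38 ± 0.12 and 0.93 ± 0.10 in this order along the chromosome. At ZT0 they were 1.16 ± 0.09, 0.10 ± 0.12 and 0.50 ± 0.10. The middle gene, Slc38a2, was not called at ZT0, and its ZT12 call was lost in some runs with a library left out, as given above. The other 6 tested SLC38 genes were not called between genotypes at either time, with 0 of them at an unadjusted p under 0.05 in edgeR and 0 called by DESeq2. They include Slc38a3, with 112 ± 12.4 CPM in CardioGRKO and 118 ± 5.38 CPM in GRflox at ZT12 (mean ± SD, n = 5 each), and Slc38a9, whose protein senses arginine at the lysosome. Slc38a5, which shares the glutamine transport of System N with Slc38a3, did not pass the filter.

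The full glucocorticoid response element, a pair of inverted AGAACA hexamers spaced by 3 free bases and searched on both strands, was in none of the promoters of the 46 transporter genes with an entry in the RefSeq promoter table (GRCm38.p6, 250 bases before to 50 after a start). Only 1 of the 11083 tested genes with an entry held it, and 3 of all 27025. Its absence from the promoters of these 46 genes therefore tells nothing about them. A gene with several annotated starts has several promoters and is counted once if any of them matches. More starts thus give more chances of a match. The 6 letters AGAACA were in a promoter of 8 of the 46 genes (17.4%). The share was 14.9% of the 11083 tested genes with an entry and 21.3% of all 27025 genes with one. The 46 include genes that were not tested. Of the 9 genes called between genotypes 7 had an entry, and among these only Slc38a4 held the hexamer. Its window is shown because its level differed between genotypes at both times: it is chr15:97020450-97020479 on the minus strand, with the match on the other strand in capitals, 108 to 103 bases before one of its annotated starts. The annotated gene reaches 97055956, so this window lies inside its span and that start is an internal one.

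Slc38a4: ttaaggcactaaTGTTCTttctagctgctg

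A match of these letters is a description, not a site, and no binding was measured.

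Among carriers of branched-chain and other large neutral amino acids, Slc43a2 was higher in CardioGRKO at both times. It encodes LAT4, which carries branched-chain amino acids, phenylalanine and methionine (Entrez gene 215113, chromosome 11, 75529915 to 75577575, plus strand). Its ZT12 libraries had 70.2, 58.03, 69.2, 71.6 and 62.8 CPM in CardioGRKO, against 37.4, 37.5, 46.96, 42.1 and 41.2 CPM in GRflox. Its ZT0 libraries had 57.3, 58.1, 55.1, 59.9 and 52.5 CPM in CardioGRKO, against 34.8, 36.2, 38.9, 39.7 and 39.4 CPM in GRflox. The groups did not overlap at either time. The log2 fold change was 0.69 ± 0.07 at ZT12 (edgeR adjusted p = 4.19e-08) and 0.58 ± 0.07 at ZT0 (edgeR adjusted p = 1.49e-06). Of its exon bases 9.18% (922) are also in the exons of Gm45606, annotated on the opposite strand, and the sources used here do not say whether the counting used strand. Slc43a1 (LAT3), of the same transport class, had 2.15 ± 0.369 CPM in CardioGRKO and 2.27 ± 0.491 CPM in GRflox at ZT12 (mean ± SD, n = 5 each) and was not called.

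Slc7a5, the LAT1 exchanger through which leucine enters many cells (Entrez gene 20539, chromosome 8, 121881146 to 121907686, minus strand), was not called in any comparison. At ZT12 it had 8.36, 7.46, 9.54, 9.42 and 7.63 CPM in CardioGRKO, against 7.85, 7.28, 9.12, 10.5 and 6.73 CPM in GRflox. At lights on it had 8.56, 8.05, 7.82, 6.79 and 5.397 CPM in CardioGRKO, against 6.32, 6.33, 7.19, 6.35 and 7.04 CPM in GRflox. The groups overlapped at both times. On the log2 scale the difference was 0.04 ± 0.12 at ZT12 (edgeR adjusted p = 0.871) and 0.13 ± 0.12 at ZT0 (edgeR adjusted p = 0.538). Its heavy chain Slc3a2 had 50.7 ± 3.89 CPM in CardioGRKO and 52.5 ± 3.14 CPM in GRflox at ZT12 (mean ± SD, n = 5 each), with a log2 fold change of -0.05 ± 0.07 that did not pass the test.

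Slc7a6, the exchanger y+LAT2 that pairs with Slc3a2 and moves arginine against neutral amino acids (Entrez gene 330836, chromosome 8, 106168219 to 106198714, plus strand), was the only SLC7 gene called between genotypes. Its ZT12 libraries had 13.9, 9.695, 13.5, 10.3 and 9.15 CPM in CardioGRKO, against 9.46, 7.87, 8.97, 9.43 and 8.88 CPM in GRflox. At ZT0 it had 10.7, 13.7, 10.8, 12.8 and 11.3 CPM in CardioGRKO, against 11.7, 12.1, 10.6, 9.78 and 9.99 CPM in GRflox. At ZT12 4 of 5 CardioGRKO libraries lay above every GRflox library, and at ZT0 the groups overlapped. The fitted log2 fold change was 0.36 ± 0.11 at ZT12 (edgeR adjusted p = 0.0232) and 0.16 ± 0.11 at ZT0 (edgeR adjusted p = 0.391). The ZT12 call was lost without CardioGRKO replicate 1 or 3 or GRflox replicate 2 (log2 0.27, 0.29 and 0.31, edgeR adjusted p = 0.0869, 0.0752 and 0.0682) and in a fit of these groups alone (0.36, edgeR adjusted p = 0.0509).

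Slc7a1, the cationic amino acid transporter CAT1, had 92.4 ± 12.5 CPM in CardioGRKO and 73.6 ± 12.6 CPM in GRflox at ZT12 (mean ± SD, n = 5 each). Its log2 fold change of 0.33 ± 0.14 did not pass the test (edgeR adjusted p = 0.0936), but did without CardioGRKO replicate 3 (0.41, edgeR adjusted p = 0.0409) or GRflox replicate 2 (0.42, edgeR adjusted p = 0.0375).

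Slc3a1, which encodes the heavy chain rBAT (Entrez gene 20532, chromosome 17, 85028347 to 85064241, plus strand), was lower in CardioGRKO. At ZT12 it had 25.1, 26.2, 22.3, 26.5 and 27.1 CPM in CardioGRKO, against 38.7, 34.5, 38.9, 30.6 and 31.6 CPM in GRflox. Its ZT0 libraries had 25.4, 22.5, 27.7, 26.4 and 31.7 CPM in CardioGRKO, against 35.01, 34.2, 32.6, 34.5 and 32.7 CPM in GRflox. Every CardioGRKO library lay below every GRflox library at both times. This gave a log2 fold change of -0.46 ± 0.08 at ZT12 (edgeR adjusted p = 1.26e-04) and -0.35 ± 0.08 at ZT0 (edgeR adjusted p = 0.0042). Of its exon bases 26.5% (601 of 2271) are also in exons of Prepl, a peptidase gene on the opposite strand, so reads of the pair may have been shared. Prepl had 117 ± 5.64 CPM in CardioGRKO and 164 ± 13.8 CPM in GRflox at ZT12, and 129 ± 13.2 against 160.1 ± 4.999 CPM at ZT0 (mean ± SD, n = 5 each). Its log2 fold changes of -0.50 ± 0.06 at ZT12 (edgeR adjusted p = 2.02e-06) and -0.31 ± 0.06 at ZT0 (edgeR adjusted p = 9.53e-04) have the same sign and nearly the size of those of Slc3a1. The call of Slc3a1 is therefore uncertain as a change of that gene itself. The median log2 fold change of the 8 cardiomyocyte markers was -0.25 at ZT12 and -0.12 at ZT0, and their part in this fall was not tested.

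Slc36a2, the proton-coupled carrier PAT2 (Entrez gene 246049, chromosome 11, 55158468 to 55185099, minus strand), was slightly higher in CardioGRKO. Its ZT12 libraries had 42.7, 48.2, 34.5, 57.3 and 49.9 CPM in CardioGRKO, against 34.1, 37.7, 33.2, 40.5 and 44.5 CPM in GRflox. At lights on it had 41.8, 45.2, 49.8, 43.6 and 46.98 CPM in CardioGRKO, against 37.97, 37.6, 35.4, 38.4 and 33.5 CPM in GRflox. The groups did not overlap at ZT0, while at ZT12 3 of 5 CardioGRKO libraries lay above every GRflox library. The log2 fold change was 0.30 ± 0.10 at ZT12 (edgeR adjusted p = 0.0318) and 0.32 ± 0.10 at ZT0 (edgeR adjusted p = 0.0293). At ZT12 the call was lost without CardioGRKO replicate 2, 4 or 5 or GRflox replicate 1, 2 or 3, with log2 fold changes from 0.21 to 0.30 (edgeR adjusted p = 0.0535 to 0.126), and in a fit of these groups alone (edgeR adjusted p = 0.0881). At ZT0 it was lost without CardioGRKO replicate 2, 3 or 5 or GRflox replicate 3 or 5, with log2 fold changes from 0.29 to 0.33 (edgeR adjusted p = 0.051 to 0.0761). Its neighbour Slc36a1, the lysosomal carrier PAT1 that lies 19223 bases away, had a log2 fold change of 0.15 ± 0.07 at ZT12 and was not called (edgeR adjusted p = 0.172), although it was without CardioGRKO replicate 5 (0.20, edgeR adjusted p = 0.041).

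Of the glutamate carriers, Slc1a1, which encodes EAAT3 (Entrez gene 20510, chromosome 19, 28835135 to 28913960, plus strand), was higher in CardioGRKO at ZT12. Libraries at ZT12 had 5.84, 4.19, 4.598, 5.68 and 4.97 CPM in CardioGRKO, against 2.92, 2.55, 3.296, 3.32 and 4.57 CPM in GRflox. At ZT0 it had 4.45, 4.38, 3.66, 5.001 and 4.51 CPM in CardioGRKO, against 3.36, 3.58, 3.804, 3.71 and 4.11 CPM in GRflox. At ZT12 4 of 5 CardioGRKO libraries lay above every GRflox library, and GRflox replicate 5 was high for its group. On the log2 scale the difference was 0.63 ± 0.13 at ZT12 (edgeR adjusted p = 0.0013) and 0.24 ± 0.14 at ZT0 (edgeR adjusted p = 0.263). Of its exon bases 31.9% (2631 of 8257) are shared with 4430402I18Rik on the opposite strand, which was lower in CardioGRKO at ZT12, with a log2 fold change of -0.45 ± 0.10 (edgeR adjusted p = 0.00258).

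Slc1a7, which encodes EAAT5, a glutamate transporter known from the retina (Entrez gene 242607, chromosome 4, 107968406 to 108013529, plus strand), had few reads. At ZT12 it had 0.3497, 0.501, 0.498, 0.267 and 0.364 CPM in CardioGRKO, against 0.705, 0.795, 1.0, 0.6503 and 1.57 CPM in GRflox. Its ZT0 libraries had 0, 0.367, 0.316, 0.0303 and 0 CPM in CardioGRKO, against 0.255, 0.125, 0.314, 0.357 and 0.127 CPM in GRflox. The 5 GRflox libraries at ZT12 were the highest of all 20, and no library at ZT0 reached 0.431 CPM, the level the filter asks for. It passed that filter through the GRflox libraries at ZT12, the group in which it is high, so its calls against that group support nothing further. The fitted log2 fold change was -1.24 ± 0.39 at ZT12 (edgeR adjusted p = 0.0242) and -0.21 ± 0.57 at ZT0 (edgeR adjusted p = 0.869). The ZT12 call was lost without CardioGRKO replicate 1 or 4 or GRflox replicate 3 or 5 (log2 -1.19, -1.11, -1.21 and -1.03, edgeR adjusted p = 0.0571, 0.0659, 0.055 and 0.0749).

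No SLC6 gene was called between genotypes by edgeR or DESeq2, with 1 of 4 tested at ZT12 and 2 of 4 at ZT0 at an unadjusted p under 0.05 in edgeR. Of all genes 21.1% were called at ZT12 and 14.7% at ZT0, so no call among 4 genes says little about the family. Slc6a8, the creatine transporter (Entrez gene 102857, chromosome X, 73673133 to 73682502, plus strand), had 306 ± 35.1 CPM in CardioGRKO and 285 ± 28.1 CPM in GRflox at ZT12, and 309 ± 8.01 against 287 ± 7.39 CPM at ZT0 (mean ± SD, n = 5 each). Its log2 fold changes were 0.10 ± 0.06 at ZT12 (edgeR adjusted p = 0.306) and 0.11 ± 0.07 at ZT0 (edgeR adjusted p = 0.307). The glycine transporter Slc6a9 had log2 fold changes of -0.30 ± 0.14 at ZT12 (edgeR adjusted p = 0.132) and -0.41 ± 0.15 at ZT0 (edgeR adjusted p = 0.0698). At ZT0 every CardioGRKO library lay above every GRflox library for Slc6a8 and below every one for Slc6a9, although neither gene was called.

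**Figure D2:**
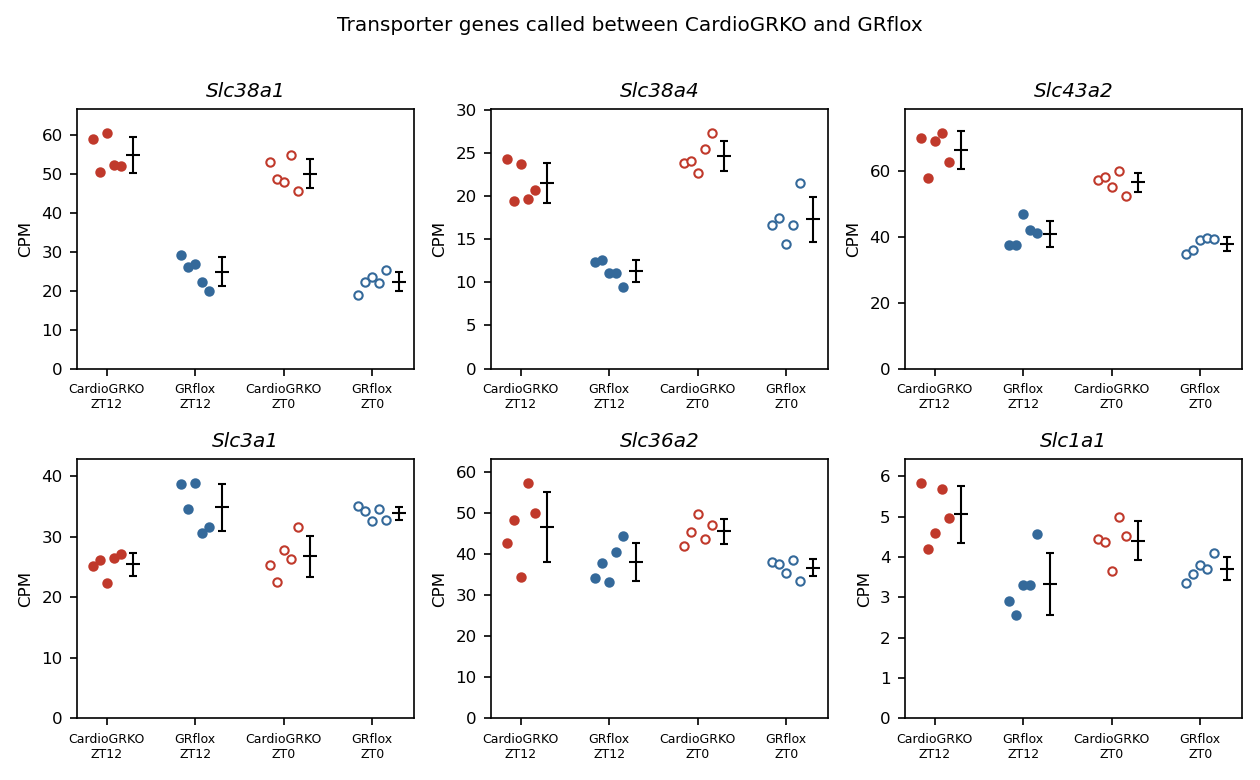
CPM of 6 transporter genes in each library, in CardioGRKO (red) and GRflox (blue) at ZT12 (filled) and ZT0 (open); crosses with bars are the mean ± SD of 5 libraries and each axis starts at 0. Slc38a1, Slc38a4 and Slc43a2 lie higher in CardioGRKO and Slc3a1 lower without overlap at both times, while Slc36a2 and Slc1a1 overlap at ZT12.

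The comparison of times asks which transporter genes differed between lights off and lights on within a genotype. In CardioGRKO, 4 of the 36 tested genes were higher at ZT12 than at ZT0 and 1 was lower, which is 13.9% against 9.17% of all genes tested (4.42% higher and 4.75% lower). In GRflox, 6 were higher and 2 were lower, which is 22.2% against 17.3% of all genes (8.13% higher and 9.17% lower). These shares exceed those of all genes by few genes, and nothing particular to transporters is read from them; among 206 other tested Slc genes the share was 12.6% in CardioGRKO and 18.9% in GRflox. The genes counted as higher in GRflox include Slc1a7, whose call is set aside because of how it passed the filter. The median log2 fold change was 0.12 in CardioGRKO and 0.04 in GRflox, against 0.00 and 0.01 for all genes. Differences in this comparison are log2 fold changes of ZT12 over ZT0 ± SE, tested in the same way, with 5 libraries in each group.

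The glutamine carrier Slc1a5 (ASCT2; Entrez gene 20514, chromosome 7, 16781334 to 16798274, plus strand) was higher at ZT12 in both genotypes. In CardioGRKO it had 26.5, 28.8, 25.1, 24.6 and 32.4 CPM at ZT12, against 17.9, 14.0, 14.2, 16.5 and 15.5 CPM at ZT0. In GRflox it had 27.6, 28.3, 27.2, 23.99 and 25.5 CPM at ZT12, against 13.9, 15.2, 15.01, 14.5 and 16.01 CPM at ZT0. The times did not overlap in either genotype. This gave a log2 fold change of 0.83 ± 0.08 in CardioGRKO (edgeR adjusted p = 1.07e-07) and 0.83 ± 0.08 in GRflox (edgeR adjusted p = 3.80e-08). Between genotypes its log2 fold change was 0.04 ± 0.07 at ZT12 and 0.04 ± 0.08 at ZT0, and neither was called.

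Slc43a3, the carrier of purine nucleobases (Entrez gene 58207, chromosome 2, 84936545 to 84958509, plus strand), was likewise higher at ZT12. In CardioGRKO it had 102, 112, 107, 109.6 and 117 CPM at ZT12, against 71.95, 71.8, 67.4, 64.98 and 63.3 CPM at ZT0. In GRflox it had 122, 119.7, 128, 101 and 121 CPM at ZT12, against 67.4, 75.8, 81.2, 67.96 and 78.2 CPM at ZT0. Every ZT12 library lay above every ZT0 library in both genotypes. The log2 fold change was 0.69 ± 0.06 in CardioGRKO (edgeR adjusted p = 4.82e-08) and 0.67 ± 0.06 in GRflox (edgeR adjusted p = 2.64e-08). Markers of several cell types also moved between times. The summed level of 8 endothelial markers was 938 to 1083 CPM at ZT12 and 1171 to 1277 CPM at ZT0 in CardioGRKO, and 1069 to 1176 against 1330 to 1470 CPM in GRflox. That of 6 macrophage markers was 226 to 304 CPM at ZT12 and 203 to 267 CPM at ZT0 in CardioGRKO, and 249.3 to 281.8 against 203 to 294 CPM in GRflox. Of these 6, 1 was called higher at ZT12 in CardioGRKO (median log2 0.20) and 2 in GRflox (median log2 0.18), and none was lower. In CardioGRKO 2 of 8 markers of pericytes and smooth muscle were called higher at ZT12, and of the 8 cardiomyocyte markers 2 were higher in GRflox. Of 7 fibroblast markers 2 were lower at ZT12 in GRflox and 0 were called in CardioGRKO. Of 2 tested lymphocyte markers 1 was lower at ZT12 in each genotype. The part of these cell types in the rises of Slc1a5, Slc43a3 and the other transporter genes at ZT12 was not tested. Between genotypes Slc43a3 had -0.12 ± 0.06 at ZT12 (edgeR adjusted p = 0.1902) and -0.13 ± 0.06 at ZT0 (edgeR adjusted p = 0.176), and the ZT12 value passed without GRflox replicate 4 at ZT12 (-0.17, edgeR adjusted p = 0.0399). Slc43a1, 72959 bases away, was not called between times in either genotype.

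Slc6a6, the taurine transporter, on which the high taurine content of cardiomyocytes depends (Entrez gene 21366, chromosome 6, 91684048 to 91759063, plus strand), was higher at ZT12 by a smaller amount. In CardioGRKO it had 259, 272, 284, 240.1 and 265 CPM at ZT12, against 238, 197, 208, 245 and 228 CPM at ZT0. In GRflox it had 253, 298, 280.2, 262 and 252 CPM at ZT12, against 189.7, 204, 196, 234 and 189.6 CPM at ZT0. The times did not overlap in GRflox, and in CardioGRKO 4 of 5 ZT12 libraries lay above every ZT0 library. On the log2 scale the difference was 0.24 ± 0.07 in CardioGRKO (edgeR adjusted p = 0.0214) and 0.41 ± 0.07 in GRflox (edgeR adjusted p = 9.60e-05). In CardioGRKO the call was lost without replicate 2 or 3 at ZT12 (log2 0.23 and 0.21, edgeR adjusted p = 0.051 and 0.0564) or replicate 2 or 3 at ZT0 (0.20 and 0.22, edgeR adjusted p = 0.0609 and 0.0683). Between genotypes its log2 fold change was -0.03 ± 0.07 at ZT12 (edgeR adjusted p = 0.813) and 0.14 ± 0.07 at ZT0 (edgeR adjusted p = 0.1798); the ZT0 value passed without GRflox replicate 4 (0.19, edgeR adjusted p = 0.0475).

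Slc38a2 went the other way and fell at ZT12 in both genotypes, and Slc38a4 fell in GRflox. Slc38a2 averaged 191 ± 30.4 CPM at ZT12 and 251 ± 34.9 CPM at ZT0 in CardioGRKO, and 147 ± 10.97 against 234 ± 45.6 CPM in GRflox (SD, n = 5 each). Every ZT12 library lay below every ZT0 library in both genotypes. In CardioGRKO the times almost touched, with 229.2 CPM the highest at ZT12 and 229.7 CPM the lowest at ZT0. The fitted log2 fold change was -0.40 ± 0.12 in CardioGRKO (edgeR adjusted p = 0.0315) and -0.67 ± 0.12 in GRflox (edgeR adjusted p = 2.16e-04). The call in CardioGRKO was lost without replicate 2, 4 or 5 at ZT12 or replicate 2 or 3 at ZT0, with log2 fold changes from -0.41 to -0.30 (edgeR adjusted p = 0.0521 to 0.1). Slc38a4 averaged 21.6 ± 2.31 CPM at ZT12 and 24.7 ± 1.77 CPM at ZT0 in CardioGRKO, and 11.3 ± 1.28 against 17.3 ± 2.596 CPM in GRflox (SD, n = 5 each). Its log2 fold change was -0.61 ± 0.10 in GRflox (edgeR adjusted p = 9.20e-05), with no overlap, and -0.19 ± 0.09 in CardioGRKO, which did not pass the test (edgeR adjusted p = 0.233). Slc38a1 had 0.14 ± 0.09 in CardioGRKO and 0.16 ± 0.09 in GRflox, and neither was called. Endothelial markers, as given above, were also lower at ZT12, and their part in these falls was not tested.

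Slc38a7, a lysosomal exporter of glutamine (Entrez gene 234595, chromosome 8, 95835920 to 95853577, minus strand), was higher at ZT12 in GRflox by a small amount. In CardioGRKO it had 28.1, 26.4, 26.1, 27.0 and 26.7 CPM at ZT12, against 21.7, 22.5, 25.03, 24.5 and 28.7 CPM at ZT0. In GRflox it had 24.1, 29.2, 27.01, 26.1 and 29.2 CPM at ZT12, against 23.7, 23.9, 21.6, 24.3 and 22.0 CPM at ZT0. The times overlapped in both genotypes, with 4 of 5 ZT12 libraries of GRflox above every ZT0 library. This gave a log2 fold change of 0.13 ± 0.07 in CardioGRKO (edgeR adjusted p = 0.2396) and 0.23 ± 0.07 in GRflox (edgeR adjusted p = 0.0149).

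Slc7a2, the cationic amino acid transporter CAT2 (Entrez gene 11988, chromosome 8, 40862341 to 40922070, plus strand), was higher at ZT12 in GRflox. In CardioGRKO it had 4.44, 4.28, 4.37, 3.61 and 4.18 CPM at ZT12, against 3.29, 2.65, 3.61, 3.42 and 3.36 CPM at ZT0. In GRflox it had 4.28, 5.48, 4.24, 3.45 and 3.72 CPM at ZT12, against 3.26, 3.495, 3.35, 2.43 and 3.21 CPM at ZT0. In GRflox 4 of 5 ZT12 libraries lay above every ZT0 library. The log2 fold change was 0.37 ± 0.13 in CardioGRKO (edgeR adjusted p = 0.0858) and 0.42 ± 0.13 in GRflox (edgeR adjusted p = 0.0243). The GRflox call was lost without replicate 2 at ZT12 (0.31, edgeR adjusted p = 0.0997) or replicate 4 at ZT0 (0.36, edgeR adjusted p = 0.0634), and in a fit of these groups alone (0.42, edgeR adjusted p = 0.0532). Slc43a2 rose at ZT12 in CardioGRKO by 0.23 ± 0.07 on the log2 scale (edgeR adjusted p = 0.0282), with 4 of 5 libraries above every ZT0 library. That call was lost without replicate 1, 3 or 4 at ZT12 or replicate 3 or 5 at ZT0, with log2 fold changes from 0.20 to 0.22 (edgeR adjusted p = 0.0622 to 0.0857). Slc1a7 was higher at ZT12 in GRflox with a log2 fold change of 2.04 ± 0.43 (edgeR adjusted p = 0.0017), and in CardioGRKO it had 1.004 ± 0.51 (edgeR adjusted p = 0.249). Because it passed the filter through the GRflox libraries at ZT12, where it is high, the GRflox call supports nothing further.

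Other SLC7 genes were not called between times. Slc7a5 averaged 8.48 ± 0.971 CPM at ZT12 and 7.32 ± 1.25 CPM at ZT0 in CardioGRKO, and 8.303 ± 1.53 against 6.64 ± 0.431 CPM in GRflox (SD, n = 5 each). Its log2 fold change was 0.22 ± 0.12 in CardioGRKO (edgeR adjusted p = 0.285) and 0.32 ± 0.12 in GRflox (edgeR adjusted p = 0.0717); the GRflox value passed without replicate 5 at ZT12 (0.38, edgeR adjusted p = 0.0374). Slc7a1 had -0.02 ± 0.14 in CardioGRKO (edgeR adjusted p = 0.957) and -0.39 ± 0.14 in GRflox (edgeR adjusted p = 0.0559). The GRflox value of Slc7a1 passed in a fit of these groups alone (-0.39, edgeR adjusted p = 0.0207), and without replicate 2 at ZT12 (-0.48, edgeR adjusted p = 0.0226) or replicate 2 at ZT0 (-0.46, edgeR adjusted p = 0.0328). Slc7a4 had 0.56 ± 0.21 in CardioGRKO (edgeR adjusted p = 0.0968), which passed without replicate 2 at ZT0 (0.74, edgeR adjusted p = 0.0409), and Slc7a6 had -0.28 ± 0.11 in GRflox (edgeR adjusted p = 0.0859), which passed in a fit of these groups alone (-0.29, edgeR adjusted p = 0.0278). Slc7a8, the LAT2 exchanger, had -0.25 ± 0.13 in CardioGRKO (edgeR adjusted p = 0.248) and -0.31 ± 0.13 in GRflox (edgeR adjusted p = 0.0962).

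**Figure D3:**
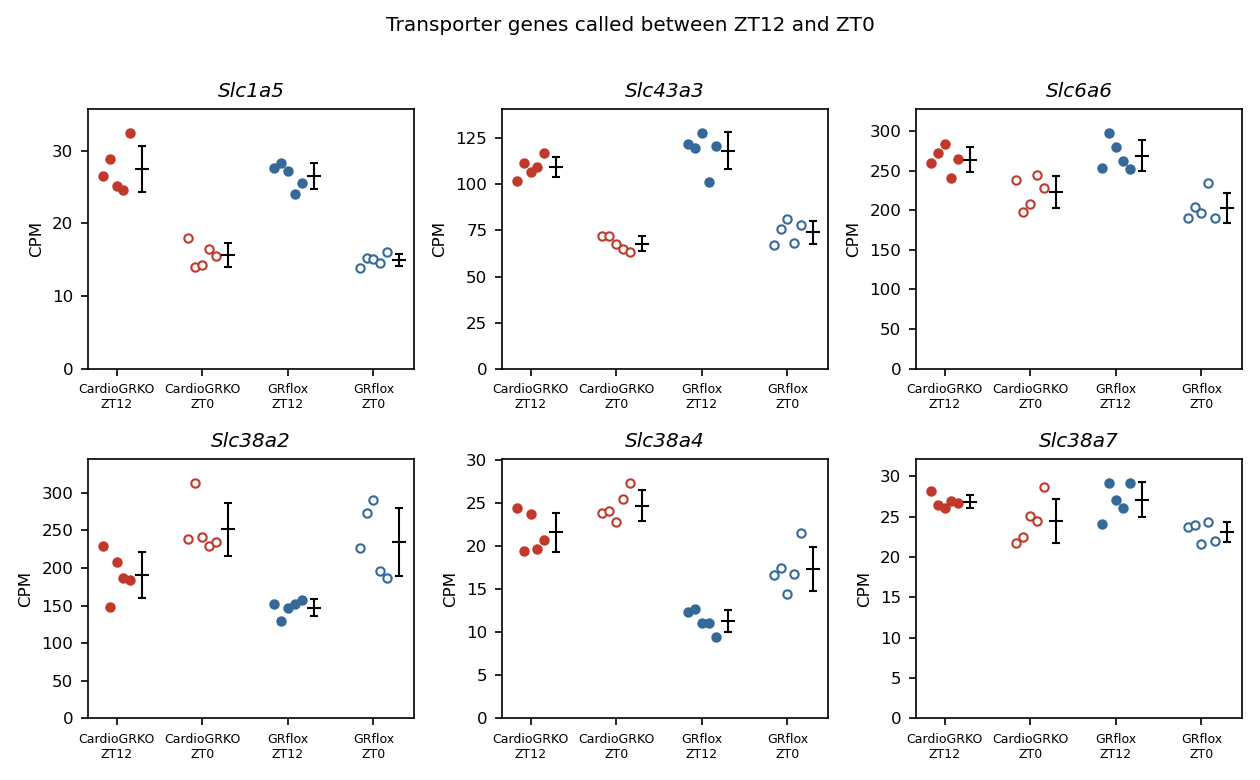
CPM of 6 transporter genes in each library at ZT12 (filled) and ZT0 (open), in CardioGRKO (red) and GRflox (blue); crosses with bars are the mean ± SD of 5 libraries and each axis starts at 0. Slc1a5 and Slc43a3 lie higher and Slc38a2 lower at ZT12 without overlap in both genotypes, and Slc38a4 lies lower at ZT12 without overlap in GRflox. For Slc38a2 in CardioGRKO the times almost touch, at 229.2 CPM at ZT12 and 229.7 CPM at ZT0.

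The E-box CACGTG is the element that the clock factors CLOCK and BMAL1 are known to bind. It was in a promoter of 8 of the 46 transporter genes with an entry (17.4%), against 11.5% of the tested genes with an entry. Of all 27025 genes with an entry, tested or not, 8.09% held it. Of the 9 genes called between times 5 had an entry, and Slc38a7 held it, as did Slc1a7, whose calls are set aside here because of how it passed the filter. The window of Slc38a7 is shown because that gene was higher at ZT12 in GRflox, with the E-box, which reads the same on both strands, in capitals. It is chr8:95853508-95853537 on the minus strand, 34 to 29 bases before an annotated start of the gene (RefSeq, GRCm38.p6). The annotated gene reaches 95853577, so the window lies inside its span. It also touches an annotated exon of the gene.

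Slc38a7: gtgattcaggctCACGTGttacttgagtcg

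The amino acid response element was searched as TGATGNAAN on both strands. It was in a promoter of 3 of the 46 genes (6.52%), against 2.82% of the tested genes with an entry. None of the transporter genes called in a comparison and with an entry held it. Of all 27025 genes with an entry, tested or not, 4.50% held it. No match in these windows says only that the letters are not there.

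The interaction asks whether the difference between times was the same in both genotypes. None of the 36 tested transporter genes was called for it by edgeR, against 0.186% of all genes (26 of 14007; 0.0643% higher and 0.121% lower), and DESeq2 called 0. Only Slc38a4 had an unadjusted p under 0.05. Its interaction was 0.42 ± 0.14 (edgeR unadjusted p = 0.0049, adjusted p = 0.4325), so the fall at ZT12 that was called in GRflox is not shown to differ from that in CardioGRKO. Likewise, the genotype differences of Slc38a2, Slc7a6, Slc1a1 and Slc1a7, called at ZT12 alone, are not shown to differ from those at ZT0. Slc38a2 had an interaction of 0.27 ± 0.16 (edgeR adjusted p = 0.898). The interactions of Slc1a5, Slc43a3 and Slc6a6 were 0.00 ± 0.11, 0.01 ± 0.09 and -0.17 ± 0.09 (edgeR adjusted p = 0.998, 0.998 and 0.879). Over both kinds of comparison, 14 of the 36 genes were called at least once and 22 never, against 37% of all genes tested called at least once (5185 of 14007), which is near the share of the transporter genes. Called both between genotypes and between times were 4, against 7.6% of all genes (1065 of 14007). Of the 27 calls, 13 were smaller than 1.5-fold and 4 were 2-fold or larger, the 4 being Slc38a1 at both times and Slc1a7 in its 2 calls. Slc1a7 is also among the 14 genes called and the 4 called in both kinds of comparison. Its 2 calls are set aside because of how it passed the filter.

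**Figure D4:**
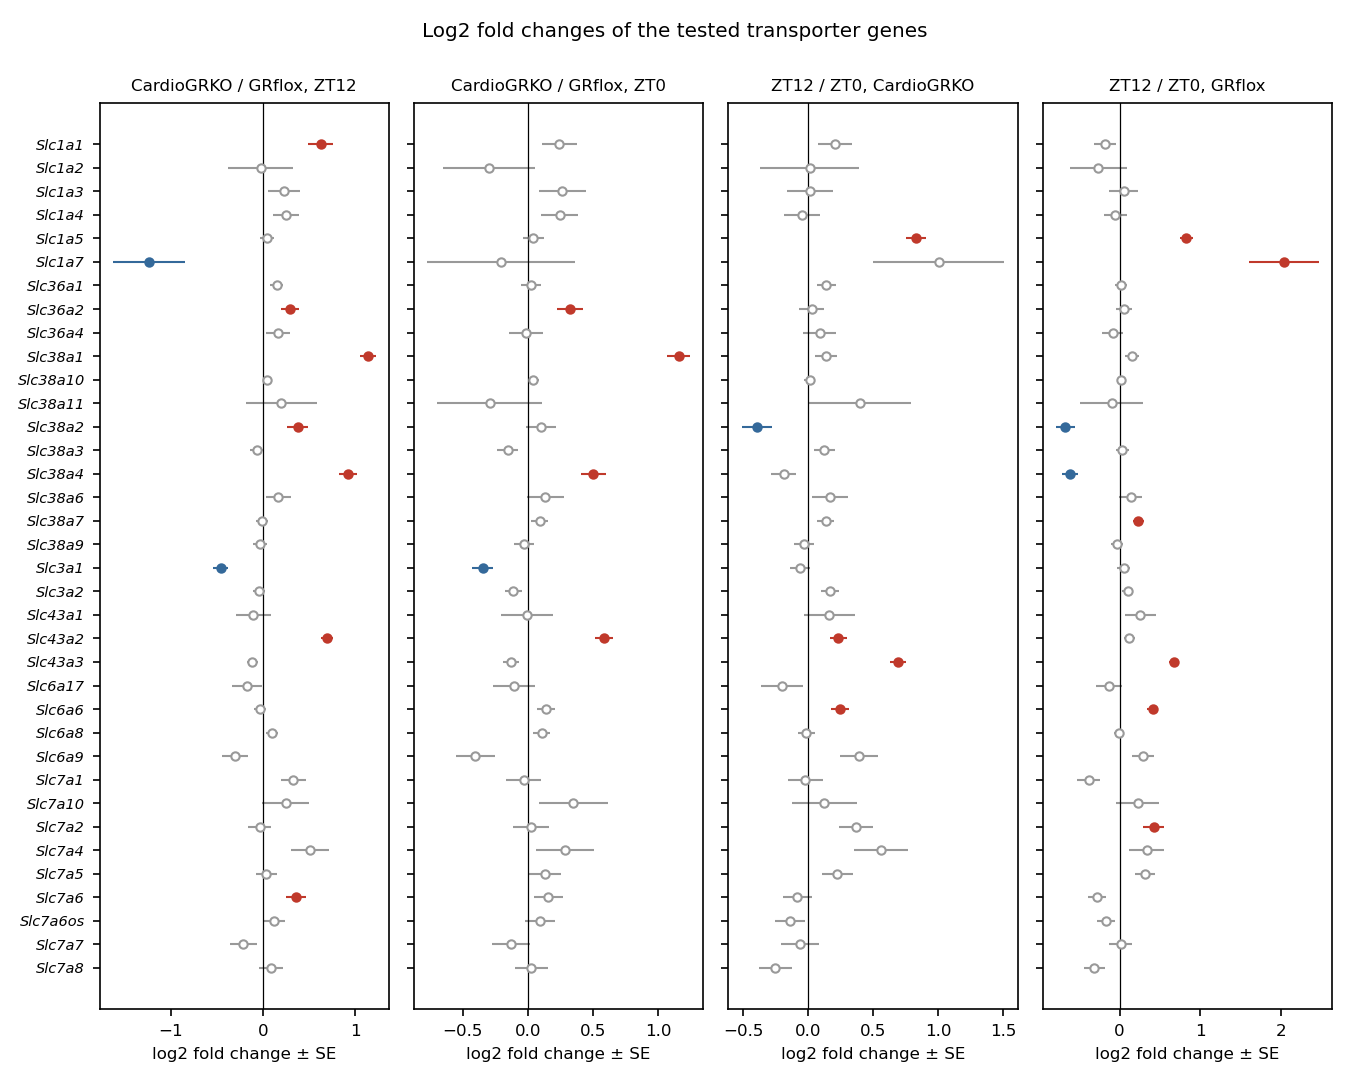
Log2 fold change ± SE of the 36 tested transporter genes in the 4 comparisons (CardioGRKO over GRflox at ZT12 and at ZT0, ZT12 over ZT0 in CardioGRKO and in GRflox); filled red points are called higher, filled blue points lower, and open grey points are not called. Slc38a1 stands at 1.14 ± 0.09 and 1.16 ± 0.09 between genotypes, and Slc1a5 and Slc43a3 stand between 0.67 and 0.83 between times in both genotypes.

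Genes that handle the transported amino acids were described from lists of the pathway, to be read between genotypes against the 21.1% of all genes called at ZT12 and the 14.7% called at ZT0. Of 11 tested mitochondrial amino acid carriers, 4 were lower in CardioGRKO at ZT12 and 2 at ZT0, and none was higher. Slc25a12, the aspartate-glutamate carrier of the malate-aspartate shuttle, had 273 CPM in CardioGRKO and 332 CPM in GRflox at ZT12 (log2 -0.28 ± 0.04, edgeR adjusted p = 9.37e-06). The glutamate carrier Slc25a22 had 65.7 CPM in CardioGRKO and 61.8 CPM in GRflox at ZT12, which was not called (log2 0.09 ± 0.10, edgeR adjusted p = 0.597), and 60.9 CPM in CardioGRKO and 80.2 CPM in GRflox at ZT0 (log2 -0.38 ± 0.10, edgeR adjusted p = 0.0135). Cardiomyocyte markers fell in the same comparisons, with medians over the 8 markers of -0.25 at ZT12 and -0.12 at ZT0, against -0.17 and -0.14 for the carriers.

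Of 31 genes for the sensing of amino acids by mTORC1, 4 were higher and 4 lower in CardioGRKO at ZT12, and 6 higher and 1 lower at ZT0. Sesn1, whose protein relays leucine shortage to mTORC1 through GATOR2, had 109 CPM in CardioGRKO and 166 CPM in GRflox at ZT12 (log2 -0.60 ± 0.06, edgeR adjusted p = 2.94e-07). It was the only gene of the pathway lists called for the interaction (-0.57 ± 0.09, edgeR adjusted p = 0.00531), with a rise at ZT12 in GRflox of 0.70 ± 0.07 (edgeR adjusted p = 3.54e-08). Its relatives Sesn2 and Sesn3 were instead higher in CardioGRKO at ZT12, by 0.45 ± 0.10 and 0.28 ± 0.08 (edgeR adjusted p = 0.00285 and 0.0164). Ddit4, an inhibitor of mTORC1 that glucocorticoids induce, had 31.2 CPM in CardioGRKO and 60.7 CPM in GRflox at ZT0 (log2 -0.98 ± 0.23, edgeR adjusted p = 0.00496).

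Of 19 tested genes of the response through GCN2 and ATF4, 3 were higher and 3 lower in CardioGRKO at ZT12, and 3 were higher at ZT0. Gdf15, a stress-induced circulating factor, had 4.99 CPM in CardioGRKO and 0.598 CPM in GRflox at ZT12 (log2 3.02 ± 0.50, edgeR adjusted p = 8.39e-05), and Mthfd2, a mitochondrial folate enzyme, had 4.47 against 1.61 CPM (log2 1.49 ± 0.28, edgeR adjusted p = 3.96e-04). Chac1, an enzyme that degrades glutathione, had 2.55 CPM in CardioGRKO and 7.57 CPM in GRflox at ZT12 (log2 -1.61 ± 0.28, edgeR adjusted p = 1.38e-04). The list thus had calls in both directions, with a median log2 fold change of 0.02 at ZT12.

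Of 8 tested taurine and osmolyte genes, 1 was higher and 3 were lower in CardioGRKO at ZT12, and 1 was lower at ZT0. Lrrc8a, the essential subunit of the volume-regulated channel that releases taurine, had 77.0 CPM in CardioGRKO and 99.0 CPM in GRflox at ZT12 (log2 -0.36 ± 0.08, edgeR adjusted p = 0.00175). Of 5 tested creatine genes, 1 was higher and 2 were lower at ZT12, and 1 was higher and 1 lower at ZT0. Ckb, the brain-type creatine kinase, had 86.3 CPM in CardioGRKO and 49.2 CPM in GRflox at ZT12 (log2 0.81 ± 0.08, edgeR adjusted p = 1.1e-07), while the mitochondrial kinase Ckmt2 had 2652 against 3430.0 CPM (log2 -0.37 ± 0.07, edgeR adjusted p = 4.74e-04). Of 9 ubiquitin ligases and kinases that act on transporters, 1 was higher and 3 were lower at ZT12, and 3 were lower at ZT0. Nedd4l, a ligase that marks membrane transporters for removal, was the one that was higher (log2 0.25 ± 0.05, edgeR adjusted p = 3.16e-04), and Akt1, Akt2 and Wwp1 were lower at both times. Of 7 tested amino acid transporters outside the families and their partner proteins, none was called between genotypes at ZT12 (1 had an unadjusted p under 0.05) and 1, Slc15a4, was higher at ZT0.

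Between times, the same lists are read against the 9.17% of all genes called in CardioGRKO and the 17.3% called in GRflox. Slc15a3, a lysosomal carrier of histidine and oligopeptides, had 2.76 CPM at ZT12 and 4.80 CPM at ZT0 in CardioGRKO (log2 -0.85 ± 0.17, edgeR adjusted p = 0.00203), and 3.07 against 5.60 CPM in GRflox (log2 -0.86 ± 0.17, edgeR adjusted p = 7.09e-04). Of the 31 genes for sensing by mTORC1, 2 were higher and 1 was lower at ZT12 in CardioGRKO, and 6 were higher in GRflox, both near the shares of all genes. Of the genes of the response through GCN2 and ATF4, 0 were called in CardioGRKO by edgeR (3 had an unadjusted p under 0.05) and 3 were higher in GRflox, Chac1 by 2.15 ± 0.29 on the log2 scale (edgeR adjusted p = 9.33e-06) and Cebpb by 1.55 ± 0.24 (edgeR adjusted p = 6.12e-05). Of the mitochondrial carriers, 0 were called in CardioGRKO by edgeR (1 had an unadjusted p under 0.05), and 1 was higher and 1 lower at ZT12 in GRflox. Of the creatine genes 0 were called in either genotype by edgeR (0 in CardioGRKO and 2 in GRflox had an unadjusted p under 0.05), and of the ligases and kinases 0 in CardioGRKO (1 at an unadjusted p under 0.05) and 1, Nedd4l, lower in GRflox. Of the taurine and osmolyte genes, 2 were lower at ZT12 in each genotype, Lrrc8d among them in both.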

How the data were processed

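The deposited values are whole-number read counts per gene for each of 20 libraries, raw as the authors counted them. The build was mm10, per the submitters' processing notes, which list STAR 2.5.1, Subread 1.5.1 with featureCounts, and DESeq2 1.38.3. Strand use, handling of multiply matching reads and the annotation release were not given in the sources used here. Each table had 24918 lines, and loci of 1 gene were summed by Entrez identifier to 24059 genes. Depth ran from 5854462 to 37648421 counts per library, which limits the precision of low genes most. Within groups, replicates differed beyond sampling noise (chi-square per gene 4.22 to 21.0 over genes with at least 20 counts).

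Counts were fitted with edgeR 4.0.16 in R 4.3.3: TMM factors (0.961 to 1.04), filterByExpr (minimum count 10, total 15; 14007 genes kept), means of 4 groups over all 20 libraries, and quasi-likelihood F-tests with Benjamini-Hochberg adjustment over all genes within each contrast. The standard error was the size of the log2 fold change over the square root of F. CPM values are scaled by TMM, and CPM per kb used exon lengths of GENCODE M21. Coordinates and promoters are RefSeq's for GRCm38.p6, the assembly of mm10; all 64 symbols matched the gene table and 46 the promoter table. Alternatives were RLE factors, DESeq2 1.42.0, no filter, only the groups compared, a replicate block and each library left out. Code was tested on simulated counts, and figures used matplotlib 3.10.9 in Python 3.11.15.

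Any gene of the 7 families could be named; values per library are given for Slc7a5, Slc38a2, Slc6a6 and each gene called in at least 1 comparison, and each pathway list allowed at most 6 names, by smallest p. The genes and lists were chosen with earlier results of these data known.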

Additional observations from a re-analysis of the deposited data

Results flagged for a closer look

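Libraries that stood apart within their own group of 5 were looked for with Dixon's test in 60 groups, the 4 groups of each of 15 transporter genes, and 2 stood apart, where chance alone flags about 1 in 20. Slc38a2 had 313 CPM in replicate 2 of CardioGRKO at ZT0, while the other 4 libraries of that group lay between 230 and 241 CPM. Without this library the fall of Slc38a2 at ZT12 in CardioGRKO was -0.30 on the log2 scale and no longer called (edgeR adjusted p = 0.1). Slc7a2 had 2.43 CPM in replicate 4 of GRflox at ZT0, while the other 4 lay between 3.21 and 3.50 CPM. Without this library the rise of Slc7a2 at ZT12 in GRflox was 0.36 on the log2 scale and no longer called (edgeR adjusted p = 0.0634).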

How the results depend on the processing

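No call of a tested transporter gene changed sign under any alternative run. Of the 27 calls, those of Slc36a2 and Slc7a6 at ZT12 and of Slc7a2 in GRflox were lost in a fit of only the groups compared, with the values given above, and all were kept under RLE factors, DESeq2, no filter and the replicate block. With no filter 4 genes were lower at ZT12 in GRflox in place of 2, and 2 in CardioGRKO in place of 1; with only the groups compared 4 were lower in GRflox. Leaving out each library in turn gave 5 to 7 genes higher and 1 to 3 lower in CardioGRKO at ZT12, and 3 to 5 higher and 1 lower at ZT0. Between times it gave 2 to 4 higher and 0 to 1 lower in CardioGRKO, 5 to 7 higher and 2 to 3 lower in GRflox, and 0 for the interaction. With replicate 1 of CardioGRKO at ZT0 (the shallowest library) left out, the counts of transporter genes stayed at 4 higher and 1 lower between genotypes at ZT0 and 4 higher and 1 lower between times in CardioGRKO, while 11.6% and 8.63% of all genes were called.

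Replicate numbers are shared between groups. Over 30 pairs of libraries with the same number, the correlation of their deviations from the group means ran from -0.27 to 0.23. Its median was 0.03, against -0.0046 over 120 pairs with different numbers, and 8 of the 30 were over 0.1. Of 20 libraries 7 correlated best with their own number. Whether libraries with the same number share a small deviation was not tested. The replicate block gave 7 higher and 2 lower between genotypes at ZT12, 4 and 1 at ZT0, 4 and 1 between times in CardioGRKO, 6 and 3 in GRflox, and 0 for the interaction; the added call was Slc7a1, lower at ZT12 in GRflox (-0.39, edgeR adjusted p = 0.0469).

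Genes under about 1 CPM rest on few reads, and of the genes called Slc3a1, Slc1a1, Slc43a2, Slc7a2 and Slc6a6 share exon bases with a gene on the opposite strand.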

Other observations

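Slc6a2, which encodes the noradrenaline transporter, was below the filter and had few reads, yet per 1000000 counted reads its libraries separated by time, although the counts themselves overlapped. It had 1, 1, 0, 1 and 0 counts in CardioGRKO at ZT12, against 1, 5, 3, 5 and 4 counts at ZT0. In GRflox it had 1, 1, 2, 1 and 1 counts at ZT12, against 3, 5, 5, 2 and 11 counts at ZT0. With no filter on low counts it was called lower at ZT12 in CardioGRKO (log2 -2.57 ± 0.63, edgeR adjusted p = 0.011) and in GRflox (log2 -1.86 ± 0.54, edgeR adjusted p = 0.0208). The size of the difference is imprecise at these counts, and the gene was named after its values were seen.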
